A study of Mus musculus with 6 samples.

Results

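The 10 Wnt ligand genes Wnt2, Wnt2b, Wnt3, Wnt4, Wnt5a, Wnt5b, Wnt6, Wnt9a, Wnt10a and Wnt11 were followed in control and Islr knockout mouse colon. Islr is a gene for a secreted leucine-rich repeat protein of stromal cells. The 10 ligand genes were taken by name from the 23462 named genes of the array, of which Wnt ligands make up 19. They were represented by 13 probes. The samples were colon RNA of 6 male mice, 3 controls and 3 with an Islr knockout, each on its own single-colour Agilent array. The labels carry no replicate numbers, and samples are numbered 1 to 3 here within a genotype in the order of their deposit. By their source labels all animals, controls included, had drunk 3.5% dextran sulfate sodium (DSS), which injures the colonic epithelium, for 5 days and had then recovered for 1 day. Another label field says that the animals went untreated. The labels give neither the allele, the cells in which Islr was deleted, the strain nor the age. The genotype field describes the controls only as control, and their sample titles end in WT, the usual short form of wild type. The design text speaks of flow separation without naming a cell population. Fibroblast (10 of 10), smooth muscle (8 of 8) and epithelial markers (9 of 9) were each well above background on all 6 arrays, as were 7 of 7 macrophage markers.

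Wnt ligands are secreted, lipid-modified glycoproteins that act over short distances. Some, such as Wnt2, Wnt2b, Wnt3 and Wnt10a, are best known for stabilising beta-catenin through Frizzled receptors and the co-receptors Lrp5 and Lrp6, while Wnt5a, Wnt5b and Wnt11 are best known for beta-catenin-independent signalling through receptors such as Ror2 and Ryk. In the intestine, fibroblasts around the crypt base are a source of ligands that maintain stem cells, and Wnt5a from stromal cells is known for its part in rebuilding crypts after injury.

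RefSeq start regions of assembly GRCm38.p6 (250 bases before to 50 bases after a transcript start) were found for 8 of the 10 genes, with 11 windows in all. Those of the ligand with the clearest difference, Wnt2, of its closest relative Wnt2b, of Wnt5b, and of Wnt11, which separated the genotypes at 1 of its 2 probes, are shown so that the sequence at these genes can be read beside their values. The Wnt2 window is chr6:18030396-18030695 on the minus strand, that of Wnt2b chr3:104961660-104961959 on the minus strand, the upstream window of Wnt5b chr6:119544298-119544597 on the minus strand, and the upstream window of Wnt11 chr7:98834862-98835161 on the plus strand. Capitals mark matches, on either strand, to the GC box GGGCGG, the AP-1 motif TGANTCA, the TCF/LEF motif ATCAAAG, the TATA motif TATAAA, the TEAD motif GGAATG and the GLI motif GACCACCC.
Wnt2: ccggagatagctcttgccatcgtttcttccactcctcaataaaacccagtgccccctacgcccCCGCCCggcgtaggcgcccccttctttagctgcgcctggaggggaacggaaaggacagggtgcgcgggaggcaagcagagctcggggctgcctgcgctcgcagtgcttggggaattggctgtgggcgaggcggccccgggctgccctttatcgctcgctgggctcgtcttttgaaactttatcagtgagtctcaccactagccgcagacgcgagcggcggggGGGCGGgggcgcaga
Wnt2b: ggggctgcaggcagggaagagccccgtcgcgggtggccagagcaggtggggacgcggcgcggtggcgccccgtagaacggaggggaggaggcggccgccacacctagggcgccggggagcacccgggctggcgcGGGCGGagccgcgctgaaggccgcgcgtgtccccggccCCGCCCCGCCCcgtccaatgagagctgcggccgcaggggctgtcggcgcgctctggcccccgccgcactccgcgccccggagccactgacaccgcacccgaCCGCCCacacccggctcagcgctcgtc
Wnt5b: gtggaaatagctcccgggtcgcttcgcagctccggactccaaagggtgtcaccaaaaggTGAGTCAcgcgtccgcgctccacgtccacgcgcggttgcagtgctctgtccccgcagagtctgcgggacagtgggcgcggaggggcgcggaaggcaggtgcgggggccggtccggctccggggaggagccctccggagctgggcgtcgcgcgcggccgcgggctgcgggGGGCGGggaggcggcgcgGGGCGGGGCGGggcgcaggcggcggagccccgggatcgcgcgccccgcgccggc
Wnt11: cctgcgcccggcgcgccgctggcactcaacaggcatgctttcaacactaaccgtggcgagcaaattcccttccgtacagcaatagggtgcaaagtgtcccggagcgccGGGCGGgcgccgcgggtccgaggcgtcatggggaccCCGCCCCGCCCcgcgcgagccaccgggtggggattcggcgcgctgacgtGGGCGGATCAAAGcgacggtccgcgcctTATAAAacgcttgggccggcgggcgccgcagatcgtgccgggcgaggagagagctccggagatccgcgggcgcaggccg
Only the GC box, which 35.7% of all 32851 windows hold, was found in the Wnt2 window (2 matches) and the Wnt2b window (4 matches). The Wnt5b window held 3 GC boxes and 1 AP-1 match (7.81% of all windows). In the Wnt11 window 1 TCF/LEF match (3.73% of all windows) directly followed a GC box, and 1 TATA match (13.6%) stood nearer the start, with 4 GC boxes in all. A TEAD match (14.7% of all windows) was found at 1 of the 8 genes, Wnt5b, in another of its windows. The remaining Wnt5b window held a second TCF/LEF match, and a GLI match (0.807%) was found at 0 genes. In these 4 windows no match overlapped one of another motif, although neighbouring GC boxes overlapped each other in Wnt2b, Wnt5b and Wnt11. G or C made up 65.7% of the Wnt2 window, 79.7% of the Wnt2b window, 78.0% of the Wnt5b window and 71.3% of the Wnt11 window, against a median of 52.7% over all windows.

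The genotype labels and arrays were checked first. The Islr signal, in units of processed intensity, was 18838, 16768 and 15157 in controls 1, 2 and 3 and 1862, 3057 and 2327 in knockouts 1, 2 and 3, with no overlap. It stayed well above background on all 3 knockout arrays. The control 1 spot was marked as an outlier and left out of the fit, in which the signal fell by 2.44 on the log2 scale (SE 0.21, limma adjusted p 0.0171; 0.0580 without knockout 3). Each array was scaled to its 75th percentile, 6353 to 7110 in controls and 4910 to 5820 in knockouts. Of 35351 tested probes 1403 (3.97%) passed an adjusted p of 0.05 in limma, 548 (1.55%) higher and 855 (2.42%) lower in the knockout. The 3 control arrays shared 1 slide row and the 3 knockout arrays the next, which means that row and genotype cannot be told apart. Of the 16451 tested genes, 3.82% passed the threshold at the probe that stood for them, 2.47% lower and 1.35% higher.

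Of the Wnt ligands, 9 of 10 were expressed well enough to be tested, and Wnt2 alone passed the threshold. Wnt2 fell in the knockout, 0 members rose, and 8 of the 9 had a negative difference (median -0.55, against 0.01 over all tested genes). The negative count was 8 in the 8 other ways of processing all 6 arrays. It was 9 without control 3 and 7 without knockout 1. The call of 1 in 9 stands beside 3.82% of all tested genes. The groups did not overlap at 5 of the 9 (Wnt2, Wnt2b, Wnt5a, Wnt5b and Wnt11), each time with the knockouts lower, against 19.2% of all tested genes in that direction. An unadjusted p under 0.05 was reached by 4 of the 9, all lower, against 14.5% of tested genes. These counts only describe the members: Wnt2, Wnt2b and Wnt10a entered the test through the controls alone, since not every knockout array was well above background, which in part fixes their direction. Of the 6 members well above background on all arrays, 5 had a negative difference, 3 had groups apart with the knockouts lower and 0 were called. Wnt11 entered all these counts by the brighter of its 2 probes. At its other probe the groups overlapped, with a difference of 0.09. In RNA that holds markers of several cell types, fewer cells that make a ligand and less of its RNA in each cell cannot be told apart.

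**Figure D1:**
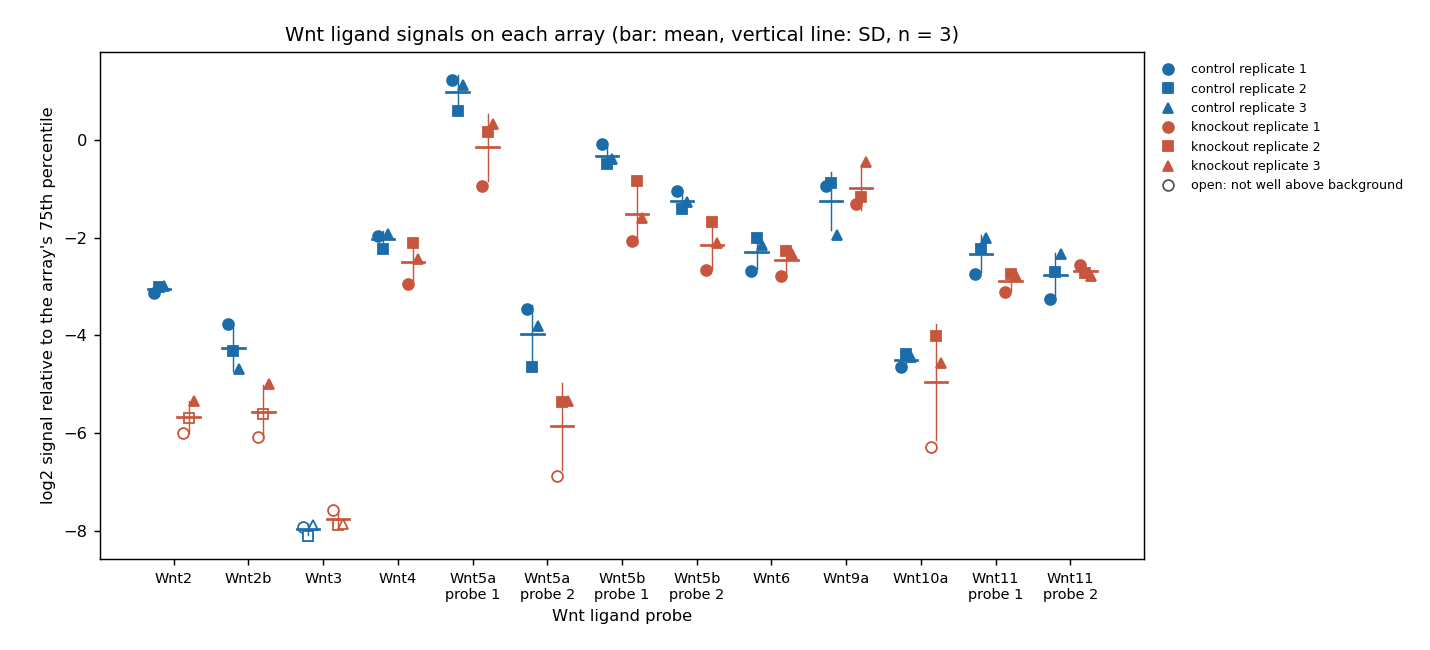
Log2 signal, scaled to the 75th percentile of its array (y axis), at each of the 13 probes of the 10 Wnt ligands (x axis), with 1 point per array, a bar for the mean and a vertical line for the SD (n = 3 per group). Open points mark signals not well above background; the groups are far apart at Wnt2, Wnt3 lies at the background on all 6 arrays, and levels of different probes are not to be compared with each other.

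Wnt2, a ligand that activates beta-catenin and is made by fibroblasts, showed the largest difference among the tested Wnt ligand probes. Its signal was 720, 879 and 828 units in controls 1 to 3 and 76.6, 113 and 142 units in knockouts 1 to 3. Every knockout lay far below every control, and the controls lay close together. Relative to the 75th percentile, the log2 level of the 3 controls averaged -3.05 ± 0.084 (SD) and that of the 3 knockouts -5.68 ± 0.33. The difference was -2.63 (SE 0.20, 95% interval -3.11 to -2.15), a 6.21-fold lower signal with a limma adjusted p of 0.00944. By p it ranked 20 among the 35351 tested probes, of which 194, Wnt2 included, differed downwards by as much. In knockouts the signal was well above background on 1 of 3 arrays, so the size of the fall is uncertain at its lower end. With each signal raised to at least the lowest one well above background on its array (116 to 122 units over the 6 arrays), the difference was -2.38, or 5.22-fold. Wnt2 kept its call in all 14 alternatives, among them the 6 fits with an array left out, with adjusted p from 0.00284 to 0.0442 and differences from -2.80 to -1.84.

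Wnt2b, the closest relative of Wnt2 and also a stromal ligand, differed in the same direction but did not pass. Its signal was 466, 357 and 253 units in controls and 72.2, 120 and 180 units in knockouts 1 to 3. The groups did not overlap, but both were spread, with control 3 and knockout 3 the nearest to each other. The difference was -1.31 (SE 0.35, 95% interval -2.13 to -0.48, limma adjusted p 0.0770), or -1.06 with dim signals raised as above, as 1 of 3 knockout arrays was well above background. As both ligands lay at or near background in knockouts, the sizes of their differences are not compared.

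Wnt5a and Wnt5b, which signal mainly without beta-catenin, each had 2 probes, and all 4 were lower in every knockout than in any control. The brighter Wnt5a probe read 14940, 10706 and 14334 units in controls and 2551, 6538 and 7247 units in knockouts. Knockout 1 was the lowest by a wide margin, and control 2 the lowest control. The difference was -1.14 (SE 0.37, 95% interval -2.02 to -0.25, limma adjusted p 0.114). The dimmer Wnt5a probe read 575, 285 and 463 units in controls and 41.4, 142 and 142 units in knockouts, the first of these not well above background, and differed by -1.89 (SE 0.50, adjusted p 0.0769). Neither passed in the main analysis, although the dimmer probe passed under normexp background correction (adjusted p 0.0492), and with quantile normalization added (0.0477). This dimmer probe entered the test through the controls alone, which in part fixes its direction. Its adjusted p ranged from 0.0477 to 0.175 over its 14 alternatives.

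The brighter Wnt5b probe read 5970, 5047 and 4987 units in controls and 1175, 3238 and 1896 units in knockouts. Controls were close together and knockouts were spread, again with knockout 1 the lowest. The difference was -1.18 (SE 0.32, 95% interval -1.94 to -0.42, limma adjusted p 0.0808). The other Wnt5b probe, designed on a different RefSeq transcript, read 3096, 2653 and 2730 units in controls and 777, 1822 and 1348 units in knockouts and differed by -0.90 (SE 0.27, adjusted p 0.0972). The brighter probe passed with array weights (adjusted p 0.0402) and without knockout 2 (0.0410), with a range of 0.0402 to 0.181 over its 14 alternatives.

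**Figure D2:**
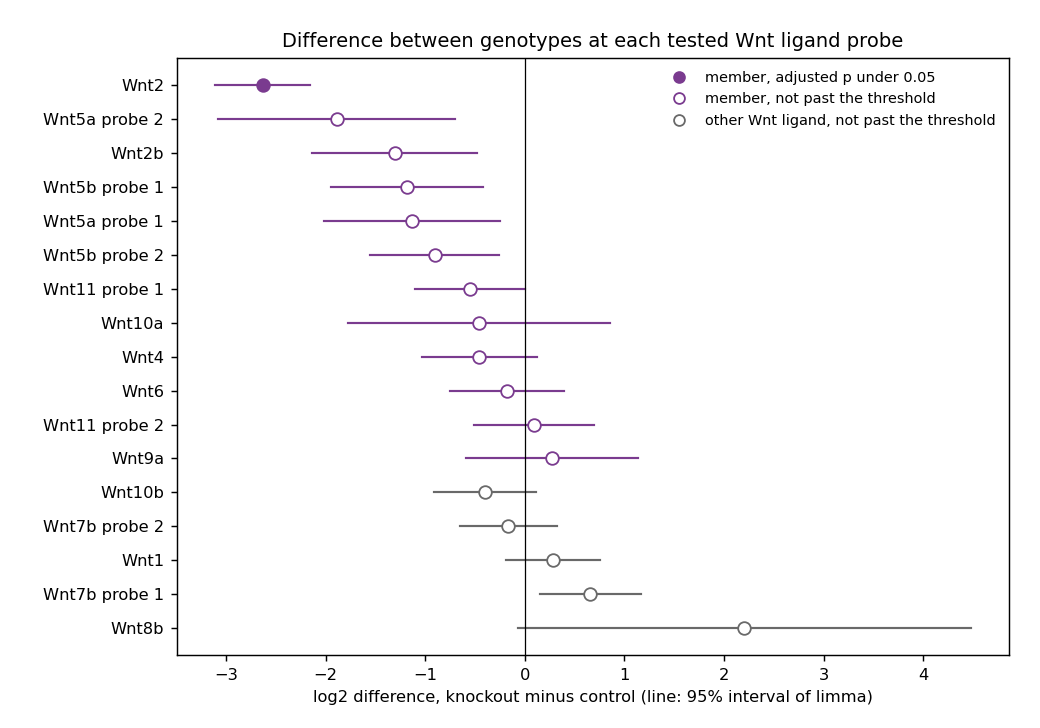
Log2 difference, knockout minus control (x axis), at each tested probe of the 9 tested members and of 4 other Wnt ligands (y axis); points are limma estimates and lines their 95% intervals. Only the Wnt2 point is filled, which marks an adjusted p under 0.05; the intervals of Wnt2b, Wnt5a and Wnt5b lie below 0 but did not pass after adjustment over all probes.

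Wnt11, a ligand of cell movement and polarity, gave different answers at its 2 probes. The probe for RefSeq transcript NM_009519 read 952, 1503 and 1629 units in controls and 567, 871 and 841 units in knockouts. The groups were apart, with a difference of -0.55 (SE 0.23, limma adjusted p 0.189). The probe for NM_001285792 read 661, 1088 and 1293 units in controls and 839, 885 and 842 units in knockouts, with overlap and a difference of 0.09 (SE 0.25, adjusted p 0.849). Neither passed, except the first with array weights (adjusted p 0.0489; 0.0489 to 0.425 over its 14 alternatives), and these probes do not give the gene a direction.

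Wnt4, Wnt6, Wnt9a and Wnt10a overlapped between the genotypes. Wnt4 read 1638, 1507 and 1733 units in controls and 640, 1352 and 1066 units in knockouts; the difference was -0.46 (SE 0.24, 95% interval -1.04 to 0.12, limma adjusted p 0.277). After scaling, knockout 2 lay inside the range of the controls and knockout 1 was the lowest. Wnt6 read 988, 1771 and 1463 units in controls and 716, 1198 and 1147 units in knockouts, a difference of -0.18 (SE 0.24, 95% interval -0.75 to 0.39, adjusted p 0.667). Wnt9a, a ligand known from joint and blood development, read 3327, 3881 and 1705 units in controls and 1974, 2600 and 4220 units in knockouts. Its highest and lowest arrays were a knockout and a control, and the difference of 0.27 (SE 0.36, adjusted p 0.666) turned to -0.07 without control 3.

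Wnt10a read 253, 339 and 300 units in controls and 62.8, 362 and 243 units in knockouts. Knockout 1, the only array not well above background, set its sign: the difference was -0.46 (SE 0.55, 95% interval -1.78 to 0.86, limma adjusted p 0.628) and 0.21 without that array. Wnt3, which epithelial cells such as Paneth cells of the small intestine make, read 24.6 to 27.5 units on the 6 arrays and was well above background on none, so it has no level or direction here. The intervals of these ligands are wide, reaching -1.04 for Wnt4, -0.75 for Wnt6, 1.14 for Wnt9a and -1.78 for Wnt10a, so equal levels are not shown.

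Knockout 1 was the lowest knockout array at all 9 tested members, against 40.8% of tested genes. Without it, the differences of the first probes were -2.47 for Wnt2 (limma adjusted p 0.0282), -1.05 for Wnt2b (0.166), -0.74 for Wnt5a (0.170) and -0.90 for Wnt5b (0.155). The Wnt2 call thus did not rest on that array, whereas the median over the 9 members moved from -0.55 to -0.43. Without knockout 2 the median was -0.94.

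**Figure D3:**
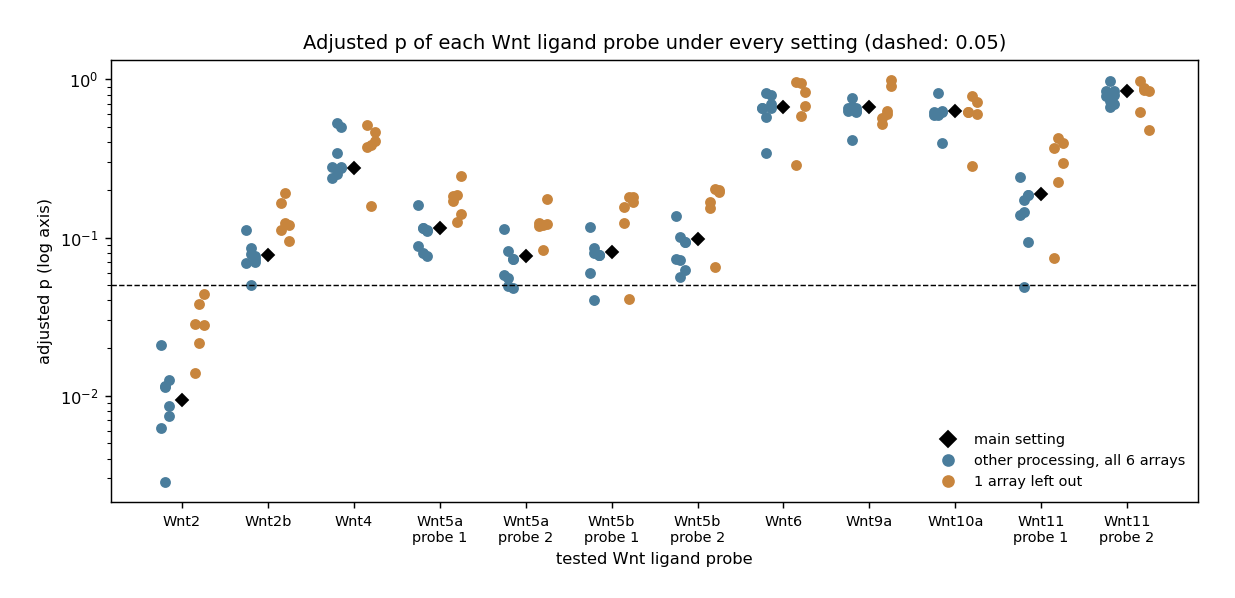
Adjusted p on a log axis (y axis) at each tested Wnt ligand probe (x axis) in the main setting (diamonds), in 8 other ways of processing all 6 arrays (blue) and with 1 array left out (orange). Every Wnt2 point lies under the dashed line at 0.05, and at the other probes most points lie above it.

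Summed levels of markers of several cell types also differed between the genotypes, given here in multiples of the array's 75th percentile. Calls in the marker lists stand beside 3.82% of all tested genes called, 2.47% lower and 1.35% higher. The sum over 9 tested fibroblast markers was 41.3 to 47.7 in controls and 27.3 to 36.2 in knockouts, and 9 of 9 had a negative difference (median -0.63, or -0.42 without knockout 1). Of these 1 was called, Pdgfrb, the PDGF receptor of mesenchymal cells (-1.17, limma adjusted p 0.0395), and the list held 0 calls in each of the 6 fits with an array left out. Over 7 markers of subepithelial fibroblasts and telocytes the sums were 7.94 to 9.75 and 3.95 to 6.80, with 5 lower. Here 1 was called, Bmp7, a BMP ligand (-2.43, adjusted p 0.0277), and 0 without control 2, control 3 or knockout 3.

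Endothelial, macrophage and neutrophil sums were also lower in every knockout than in any control. Over 7 endothelial markers the sums were 6.47 to 8.23 in controls and 2.46 to 4.85 in knockouts, with 7 of 7 negative (median -1.36, or -0.72 without knockout 1). The transcription factor Erg, well above background on 0 knockout arrays, was the 1 called, and 0 were called without control 2, control 3, knockout 1 or knockout 3. Over 6 macrophage markers the sums were 14.9 to 21.4 and 8.39 to 13.7, with 6 of 6 negative and 0 called. Neutrophil markers showed the largest shift of the marker lists, larger than that of Wnt2, with a median of -3.79 over 6 genes (-4.47 to 0.17). Of these 5 were called, all lower, against 2.47% of all tested genes. Calls fell to 0 without control 2 and to 1 without control 3 or without knockout 3, while the median stayed between -4.12 and -2.73 with an array left out. Their sums, 19.6 to 20.8 and 9.90 to 10.4, include Csf3r, which had a difference of 0.17.

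Epithelial markers had higher sums in knockouts, 54.3 to 71.9 over 7 genes, against 47.4, 15.8 and 36.4 in controls 1, 2 and 3. Control 2 stood apart, and the median of 1.16 was 0.54 over 5 genes without it. Smooth muscle sums over 6 genes were 39.7 to 49.8 in controls and 54.2 to 64.2 in knockouts. Of these 2 lists 0 members were called. Sums of mesothelial, B and plasma cell, and T cell markers overlapped between the genotypes. Trophocyte and adventitial fibroblast sums were 17.8 to 19.3 in controls and 14.4 to 16.8 in knockouts. Sums of enteric neuron and glia markers were 9.89 to 10.1 and 7.86 to 9.17. All of these lists held 0 calls. The part of cell composition in the ligand differences was not tested.

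Each ligand was also set against the mean log2 level of the 9 fibroblast markers on the same array. The scale is a description, set up after the data were seen. The mean log2 difference was -0.57 over these markers, but -1.26 over the subepithelial and -1.34 over the endothelial ones, which were not used as a scale. Wnt2, near background in knockouts, differed by -2.07. The controls stood at -4.87, -4.55 and -4.70 and the knockouts at -6.76, -6.94 and -6.61, without overlap (exact permutation p = 0.1, the smallest possible). Among the 9 tested members it was the only one with groups apart in that direction at its first probe, against 4.47% of tested genes. The dimmer Wnt5a probe was apart too. Both probes entered the test through the controls alone, which in part fixes their direction, so the share is given only as a description. Relative to these markers the differences of Wnt2b (-0.74), Wnt5a (-0.57) and Wnt5b (-0.61) were smaller and their groups overlapped. Those of Wnt4 (0.11), Wnt6 (0.39), Wnt10a (0.11) and the first Wnt11 probe (0.02) were above 0, with overlapping groups, and that of Wnt9a was 0.84, also with overlap. The second Wnt11 probe differed by 0.66, with every knockout above every control.

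**Figure D4:**
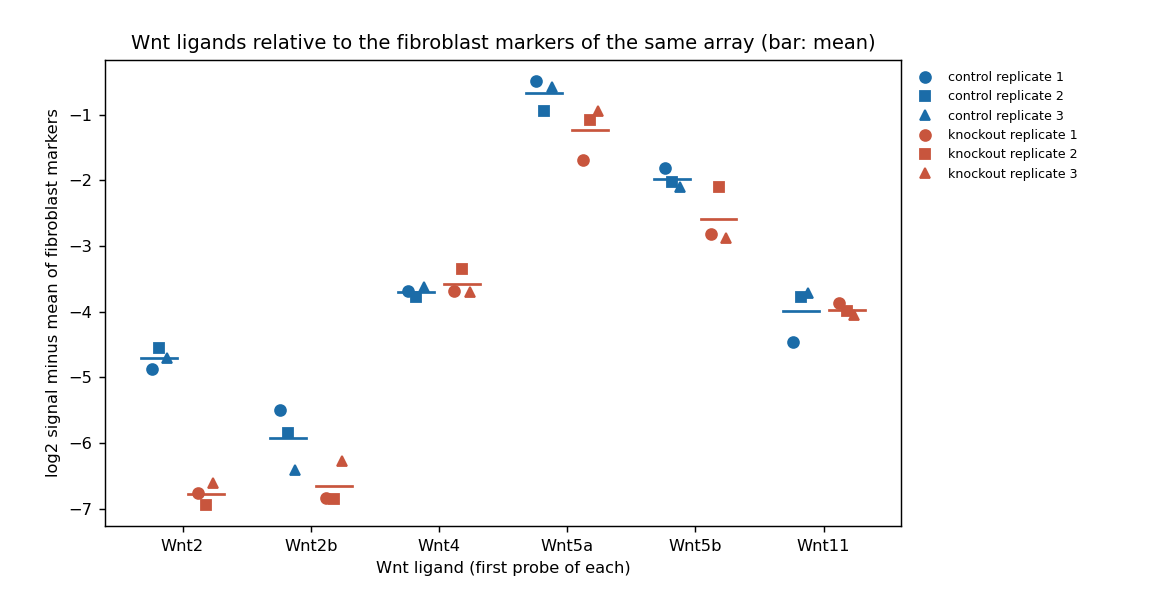
Log2 signal minus the mean log2 level of 9 fibroblast markers on the same array (y axis) for 6 Wnt ligands (x axis), with 1 point per array and a bar for the mean of each group. The Wnt2 groups lie apart, those of Wnt2b, Wnt5a and Wnt5b overlap, and those of Wnt4 and Wnt11 lie at similar heights.

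The genes whose pattern over the 6 arrays was most like that of Wnt2, by the root mean square difference of log2 values centred on each gene's mean, were Hcar2 (0.0835), Gm11228 (0.126), Ccno (0.185), Krtap11-1 (0.220) and Tnfsf11 (0.227), against a median of 1.36 over 16442 genes. Hcar2, a receptor for niacin and butyrate, read 5826, 7504 and 6602 units in controls and 604, 1046 and 1244 units in knockouts. Tnfsf11, which encodes the cytokine RANKL, read 2508, 3092 and 2444 units in controls and 228, 532 and 524 units in knockouts. Their array pattern resembles that of Wnt2 because they were chosen for it. The signal of Gm11228 was well above background on 0 knockout arrays.

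The other 9 Wnt ligands on the array gave 0 calls. Of these 4 were tested, with differences of 0.66 for the first probe of Wnt7b (limma adjusted p 0.113), 0.28 for Wnt1 (0.396), -0.39 for Wnt10b (0.286) and 2.21 for Wnt8b (0.197). Wnt7b, a ligand best known from lung and kidney, read 501, 757 and 709 units in controls and 616, 911 and 1054 units in knockouts at that probe, and after scaling every knockout was above every control. Its second probe overlapped and differed by -0.17 (adjusted p 0.634). The first Wnt7b probe passed under quantile normalization (adjusted p 0.0398) and with array weights (0.0317; 0.0317 to 0.275 over its 14 alternatives). Wnt3, Wnt3a, Wnt7a, Wnt9b and Wnt16 were well above background on 0 of the 6 arrays.

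Genes that lipidate, release or inactivate Wnt ligands gave 0 calls among 4 tested at their brightest probe. Porcn, the acyltransferase that adds the lipid, differed by -0.48 (limma adjusted p 0.247), and Wls, which carries lipidated ligands to the cell surface, by 0.11 (adjusted p 0.805, 2 usable values in each group). Trabd2b, a protease that inactivates Wnt ligands, differed by -1.05 (adjusted p 0.0797, 2 usable control values), and its dimmer probe fell by 0.94 (SE 0.16, adjusted p 0.0386; at most 0.127 over its 14 alternatives, of which 6 passed).

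Among 13 tested receptors and co-receptors 1 was called, against 3.82% of tested genes, and the median was -0.12 (0.01 without control 3). Ptk7, a receptor-like protein of the planar cell polarity pathway, fell by 1.41 (SE 0.24, limma adjusted p 0.0384). It kept the call in 2 of the 6 fits with an array left out, with a highest adjusted p of 0.108 without control 2. The call also ended without control 1, control 3 or knockout 3. Among 8 tested R-spondins and their receptors 1 was called: Rnf43, a ubiquitin ligase that removes Frizzled from the cell surface, rose by 2.11 (SE 0.34, adjusted p 0.0349). It was called in 2 of those 6 fits and ended without control 2, control 3, knockout 1 or knockout 3, with a highest adjusted p of 0.0914 without control 3.

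Secreted inhibitors, intracellular components and target genes gave 0 calls each at their brightest probes. The 8 tested inhibitors had a median of -0.63 (-0.87 to -0.22 over the alternatives); Dkk2, which blocks Lrp co-receptors, differed by -3.38 (SE 0.96, limma adjusted p 0.114, 2 usable values in each group). Sfrp1, which binds Wnt ligands, differed by -1.19 (adjusted p 0.138, 2 usable control values), and Dkk3 by -0.81 (adjusted p 0.209, 2 usable values in each group). Of the 16 tested intracellular genes, with a median of -0.05 that was 0.01 under normexp background correction and without knockout 3, Tcf7l2, the main beta-catenin partner in gut epithelium, differed by 1.44 (adjusted p 0.0665), Lef1 by -1.26 (0.114) and Dvl3 by 0.85 (0.183). Of the 12 target genes, with a median of 0.14 that was -0.04 under quantile normalization, the crypt genes Ephb2 and Sox9 differed by 1.61 (adjusted p 0.0609) and 1.52 (0.0649), and Cd44 by -1.45 (0.0633, 2 usable control values). A dimmer Cd44 probe fell by 1.48 (adjusted p 0.0369), and it was called in 2 of the 6 fits with an array left out.

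**Figure D5:**
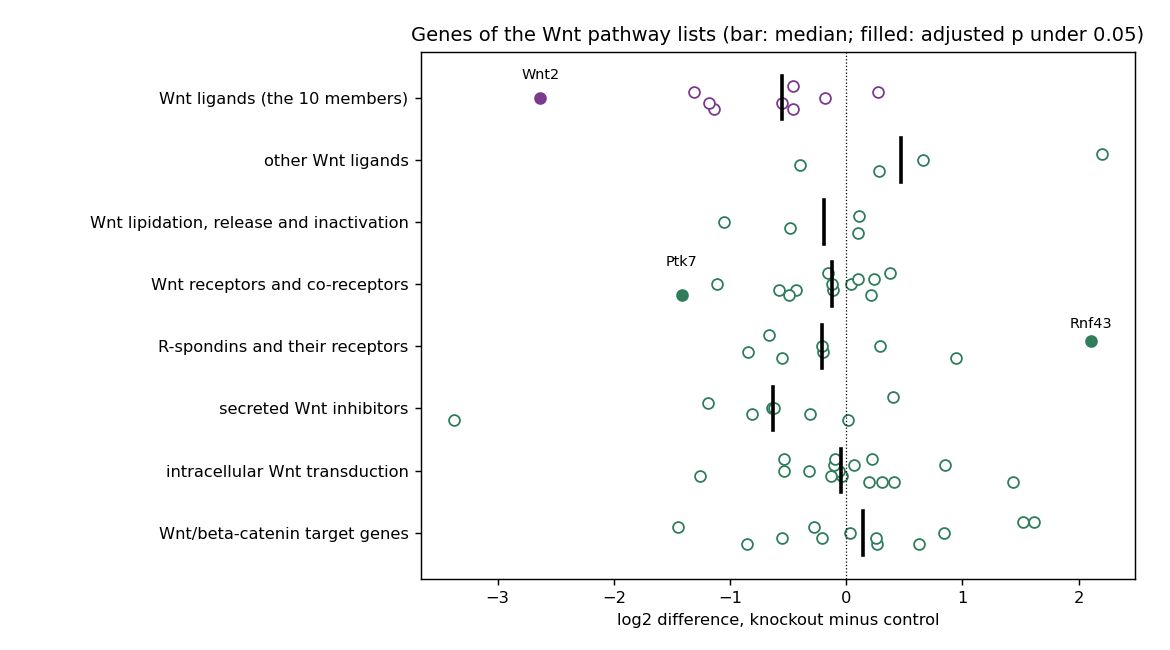
Log2 difference, knockout minus control (x axis), of each tested gene in the 8 Wnt lists (y axis); a bar marks the median of a list, and filled points with names passed an adjusted p of 0.05. Wnt2 and Ptk7 were lower and Rnf43 was higher in the knockout; all other genes of these lists are shown as open points.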

How the data were processed

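Expression was measured on 6 Agilent arrays of design 074809 (3 controls, 3 Islr knockouts). The deposited processed signal is an intensity on a linear scale that the authors obtained with Feature Extraction, version 11.5.1.1 per the file headers and 10.7 per the submitters' processing notes; it is background-subtracted and detrended but not scaled between arrays. The labels name Cy3 and a green column, whereas each file holds the red channel, which was used. The series' value table holds the same intensities (log2 correlation of at least 0.999999) and served as an alternative.

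Signals were converted to log2 and scaled by subtracting each array's 75th percentile over non-control spots. Spots marked as outliers (3.26% to 16.0% of an array) were treated as missing, of which the Wnt ligand probes had 0, and spots of a probe were averaged. Probes well above background on all 3 arrays of a group, with 2 usable values per group, entered a two-sided moderated linear model (limma 3.58.1, functions lmFit and eBayes, run under R 4.3.3) with Benjamini-Hochberg adjustment over all tested probes. The procedure was tested on simulated data, modelled on probes with no missing value that were well above background on every array. That test did not cover probes near background in a group, such as Wnt2, or probes with missing values. Single values were compared with two-sided exact permutation tests, where outlier spots were kept, as they were in summed marker levels. Probes were named through RefSeq accessions (59.7% matched) in the annotation of GRCm38.p6; the files place probes on mm9, so probes were given no coordinates, and the printed start regions were matched by gene symbol and keep those of GRCm38.p6. The tested probe with the highest mean stood for a gene. Precision is limited by the number of arrays, 3 in each group.

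All Wnt ligands, Islr, called genes of the pathway lists or else up to 3 per list with the largest differences, and the 5 genes most like the ligand with the lowest p were named; Pdgfrb, Bmp7, Erg and Csf3r were named after their values were seen. The members, lists and motifs were chosen with earlier results of these data known.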

Additional observations from a re-analysis of the deposited data

How the results depend on the processing

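The 14 alternatives were normexp background correction (offset 50), the same with quantile normalization, median centring, the 75th percentile of detected probes, outlier spots kept, no filter on dim probes, array weights, the series' value table, and each of the 6 arrays left out. The number of Wnt ligands called was 1 in 12 of them and 3 with array weights (Wnt2, Wnt5b and Wnt11). It was 1 to 2 over the fits with an array left out. With the other tested probe of Wnt5a, Wnt5b and Wnt11 in use it was again 1. That 1 was Wnt2 at its only probe, whose call this swap could not change. The 1403 probes called in all became 2558 under normexp (51.1% of them higher, against 39.1%), 2773 with quantile normalization, 2249 with median centring, 484 with no filter and 7320 with array weights (49.7% higher), and 40 to 2114 with an array left out. The 2 pathway genes called became 5 under normexp, 7 with quantile normalization, 5 with median centring, 4 with outlier spots kept, 0 with no filter, 13 with array weights, and 0 to 3 with an array left out. Signs turned for Wnt9a without control 3 (-0.073; -0.073 to 0.46 with an array left out), Wnt10a without knockout 1 (0.21; -0.94 to 0.21), the second Wnt11 probe with array weights (-0.10) and without control 1 (-0.16; -0.16 to 0.31), and the second Wnt7b probe without knockout 1 (0.0064; -0.30 to 0.0064); 0 of these was called in any setting. The comparison with fibroblast markers and the raised dim signals were added after the data were seen. The cause of these shifts was not tested. No paired analysis was made, since each array held a different mouse and the labels give no pairing. Signals near background limit Wnt2, Wnt2b, Wnt10a and the dimmer Wnt5a probe in knockouts, and Wnt8b in controls.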

Other observations

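Wnt8b, a ligand best known from the developing brain, read 59.1, 110 and 131 units in controls and 1635, 153 and 188 units in knockouts 1 to 3. Knockout 1 stood far above the other 5 arrays at this probe, although it was the lowest knockout array at all 9 of the tested ligands described above. The difference of 2.21 (SE 0.95, limma adjusted p 0.197) was 1.04 without that array. The probe was well above background on 1 of 3 control arrays and was tested through the knockouts, and with dim signals raised to the lowest one well above background the difference was 1.82.

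In the RefSeq annotation 4 pairs of Wnt genes are neighbours: Wnt3 with Wnt9b and Wnt9a with Wnt3a on chromosome 11, Wnt1 with Wnt10b on chromosome 15, each with 0 gene starts between them, and Wnt6 with Wnt10a on chromosome 1, with 2 predicted genes between them. In the Wnt6 and Wnt10a pair both ligands were measured and neither passed, with differences of -0.18 and -0.46 (limma adjusted p 0.667 and 0.628). In the Wnt1 and Wnt10b pair the differences were 0.28 and -0.39 (limma adjusted p 0.396 and 0.286). Of each pair on chromosome 11 at least 1 ligand was not well above background on any array.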
